A study of Cicer arietinum with 12 samples.

Results

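LTP is a chickpea (Cicer arietinum) gene with the symbol of a lipid transfer protein, listed in the count files as LOC101505155, and its level was followed in every sequenced leaf library. It is 1 of 27234 features in those files. It was taken up because an earlier account of the same data named it among the larger rises under drought in the genotype ICC283. Its values in that contrast, and in every contrast that uses the same ICC283 libraries, are therefore given as a description with no test.

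Plant lipid transfer proteins are small, secreted, cysteine-rich proteins that can bind and carry fatty acids and other lipids. They are found largely in the epidermis and outer cell walls of aerial organs, where they have been linked to the wax and cutin of the cuticle and to defence. Genes of the family respond to water deficit, salt or abscisic acid in several other plants. LTP is identified here by its symbol and identifier, and its protein and promoter sequences were not used here.

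Leaf RNA was sequenced from drought-stressed and well-watered plants of ICC283 and ICC8261, which the labels call drought sensitive and drought tolerant. Drought plants were kept at 20% of field capacity and well-watered plants at 80%, in pots in a glasshouse, and the stage given for the sampled leaves is shoot apical meristem. Each of the 4 groups (ICC283 drought, ICC283 well-watered, ICC8261 drought and ICC8261 well-watered) held 3 libraries. Each genotype had 6 pots shared between the treatments, but no label ties a library to its own pot. The p-values thus cover only the spread among the libraries, which may be technical.

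Reads assigned to genes ran between 8910704 and 12192098 per library. Of the marker lists for leaf, shoot apical meristem, seed and nodule or root, only the seed list matched a measured feature, LEG, with 0 to 2 counts per library. The leaf label could not be checked against markers. Library columns of the authors' deposited tables carry the letters SAM, the initials of the stage given. The treatment of 4 libraries differed between the count files and the columns of the authors' deposited tables, whose reads match. In ICC283 the tables exchange drought library 3 and well-watered library 3 of the count files, and in ICC8261 they exchange drought library 2 and well-watered library 1. No source used here settles which is right. Fold changes below come from the 8 agreed libraries, 2 per group, whose treatment is the same either way, and the other 4 are given by their own values.

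LTP was high in drought leaves of both genotypes and lower in well-watered leaves. Levels are CPM, reads of a gene as a share of 1000000 gene reads of its library, after a common TMM scaling of the 12 libraries. In ICC283 it stood at 1505 and 1698 CPM in drought libraries 1 and 2, against 184 and 303 CPM in well-watered libraries 1 and 2. In ICC8261 it stood at 1510 and 1232 CPM in drought libraries 1 and 3, against 453 and 506 CPM in well-watered libraries 2 and 3. Within each genotype the drought and well-watered libraries did not overlap, with 2 libraries per group. Nothing is read from this in ICC283, where LTP was chosen. What share of all genes separates in this way, here or over the 12 libraries below, was not counted. In leaf RNA of mixed cells, a change in the number of cells that express a gene and a change in RNA per cell cannot be told apart.

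**Figure D1:**
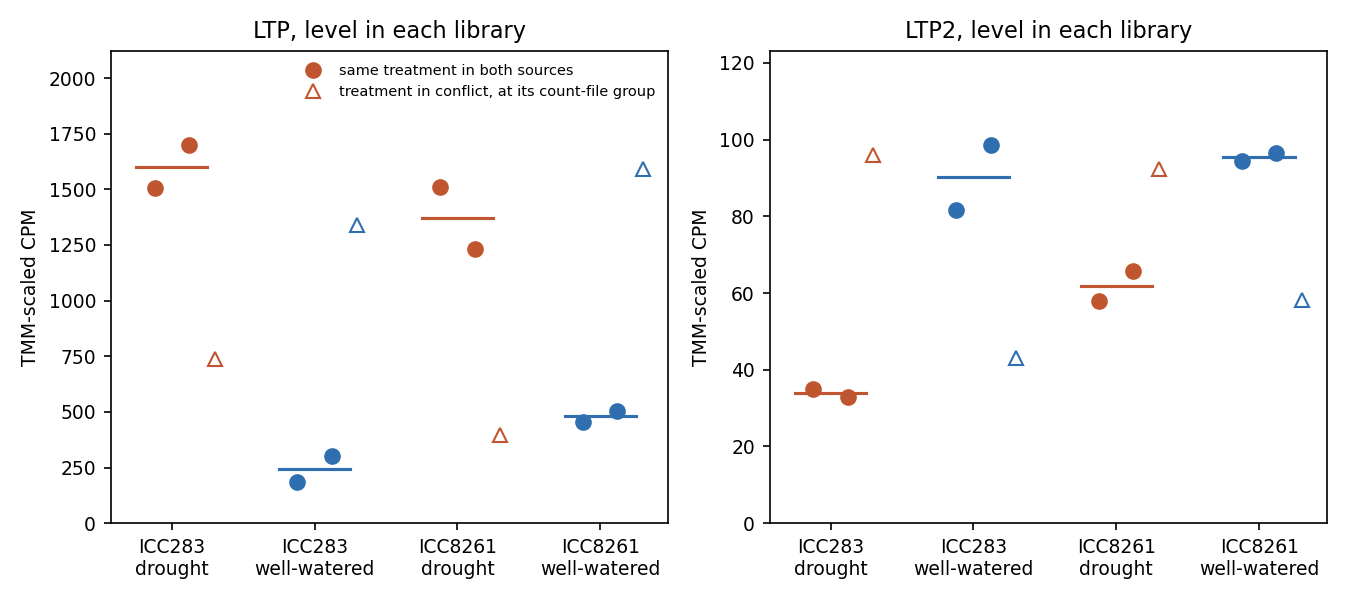
Level of LTP (left) and of LTP2 (right) in each of the 12 libraries, in scaled CPM on linear axes that start at 0. Filled circles are the 8 agreed libraries and bars are their means (n = 2 per group); open triangles are the 4 libraries of conflicting treatment, drawn at their count-file group. LTP circles lie at 1232 CPM or higher under drought and at 506 CPM or lower when well-watered, while LTP2 circles lie at 65.8 CPM or lower under drought and at 81.8 CPM or higher when well-watered.

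The 4 libraries of conflicting treatment fell on both sides. The library filed as ICC283 drought 3, which the tables call well-watered 3, had 736 CPM. The library filed as ICC283 well-watered 3, which the tables call drought 3, had 1338 CPM. In ICC8261 the library filed as drought 2 (well-watered 1 in the tables) had 396 CPM, and the library filed as well-watered 1 (drought 2 in the tables) had 1591 CPM. In both genotypes the library filed as drought was the lower of the pair.

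With the treatments of the tables, the 6 drought libraries held ranks 1 to 6 of LTP level among the 12, and the 6 well-watered libraries held ranks 7 to 12. With the treatments of the count files, each group of 3 contained 1 library from the other side of the gap between 736 and 1232 CPM. The ICC283 library at 736 CPM stood apart from the next lower ICC283 library, at 303 CPM, and no other library lay between 506 and 1232 CPM.

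The order of the 4 group means of LTP was the same in the 8 agreed libraries and with either source's treatments in all 12. In the 8 agreed libraries ICC283 drought averaged 1602 ± 136 CPM and ICC8261 drought 1371 ± 196 CPM, and ICC8261 well-watered averaged 480 ± 37.6 CPM and ICC283 well-watered 244 ± 84.2 CPM (SD, n = 2 each). The ranges of both drought groups overlapped, at 1232 to 1510 CPM in ICC8261 and 1505 to 1698 CPM in ICC283. The well-watered ranges did not, at 453 to 506 CPM in ICC8261 and 184 to 303 CPM in ICC283. Nothing is read from this gap, since it uses the ICC283 libraries on which LTP was chosen. The share of all genes with such a gap between genotypes was not counted. Over all 12 libraries with the tables' treatments, ICC8261 well-watered averaged 452 ± 55.3 CPM and ICC283 well-watered 408 ± 290 CPM (SD, n = 3 each), and their ranges overlapped.

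In ICC283 the log2 fold change of LTP under drought was 2.72 ± 0.23 (SE), a 6.58-fold higher level, given with no test. Of the 18750 genes tested in that genotype, 38.2% were called at an edgeR adjusted p under 0.05, 17.1% of all as higher under drought and 21.1% as lower. LTP held rank 176 from the highest log2 fold change, a place that nothing is read from since it was chosen there. The size of the difference depended on the well-watered libraries: it was 2.40 without ICC283 well-watered library 1 and 3.12 without well-watered library 2. It was 1.89 ± 0.39 with the tables' treatments in all 12 libraries and 1.14 ± 0.78 with the count-file treatments.

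In ICC8261, whose fold change was not used to choose LTP, LTP rose by 1.52 ± 0.22 on the log2 scale, a 2.86-fold higher level (edgeR's quasi-likelihood test with Benjamini-Hochberg adjustment, adjusted p = 0.0041). Of the 18750 genes tested in ICC8261, 15.5% were called, 9.09% of all as higher under drought and 6.37% as lower. LTP held rank 507 from the highest log2 fold change, and 368 of the genes above it were called. The value was 1.66 ± 0.39 with the tables' treatments (adjusted p = 0.013 by the same edgeR test). Without ICC8261 well-watered library 2 it was 1.42 and no longer passed in edgeR's test (adjusted p = 0.069). With the count-file treatments it was 0.31 ± 0.77 (edgeR adjusted p = 1), in a fit that called 0 genes in either genotype under drought, while the unadjusted p was under 0.05 for 1841 genes in ICC283 and for 386 in ICC8261.

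**Figure D2:**
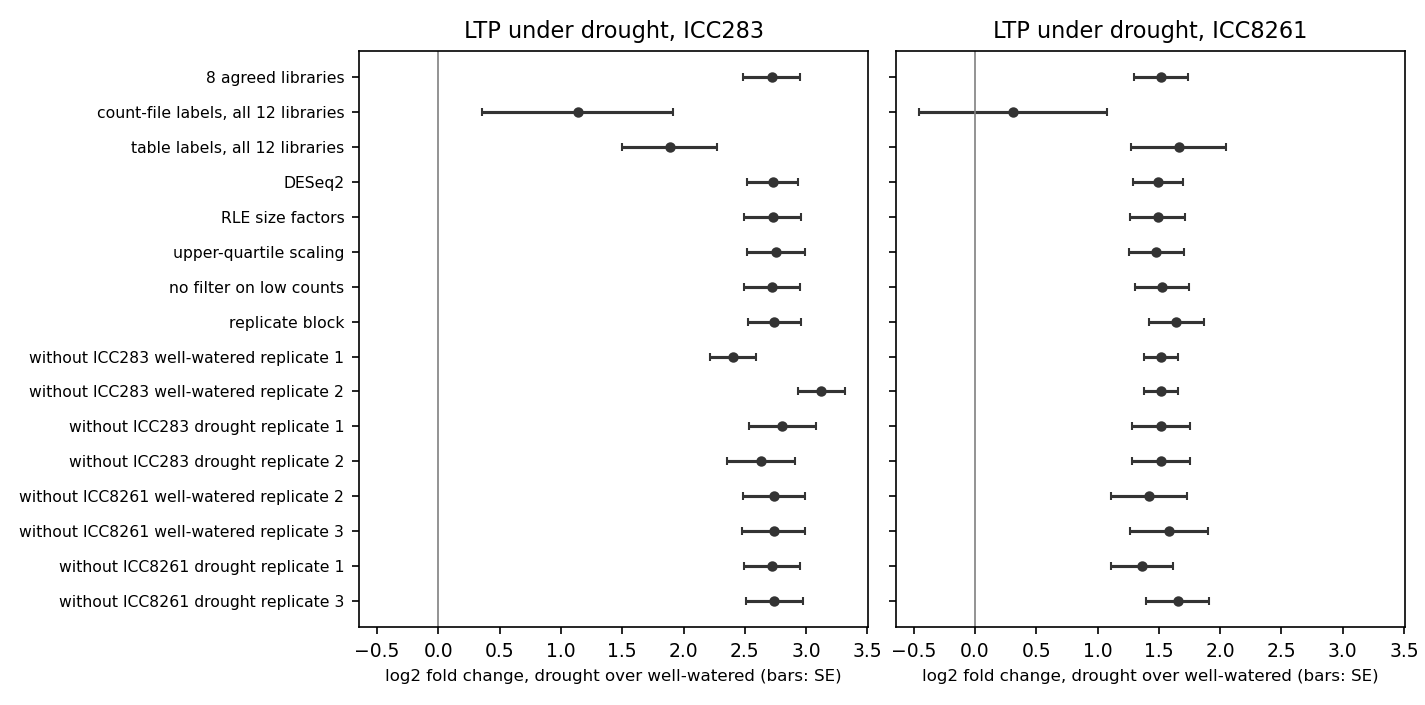
Log2 fold change of LTP, drought over well-watered, in ICC283 (left) and ICC8261 (right), from the 8 agreed libraries (top) and under each alternative; bars are the standard error. All points lie to the right of 0; the count-file treatments give the smallest values, 1.14 and 0.31, and the tables' treatments give 1.89 and 1.66.

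The authors' deposited tables also list LTP, and their log2 fold changes run as drought over well-watered with the tables' own treatments. In ICC283 the authors' deposited table gives a DESeq2 log2 fold change of 1.72 (SE 0.387) and an edgeR value of 1.86. For ICC8261 the authors' deposited table gives a DESeq2 log2 fold change of 1.64 (SE 0.146, adjusted p = 1.7e-26) and an edgeR value of 1.67 (adjusted p = 3.8e-18). The authors' DESeq2-normalized counts of LTP were 14750, 16609 and 12827 in the 3 columns they call ICC283 drought, against 1779, 2960 and 7357 in those they call ICC283 well-watered. For ICC8261 their columns held 17339, 18028 and 14010 for drought, against 4524, 5186 and 5802 for well-watered.

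The log2 fold change of LTP under drought was smaller in ICC8261 than in ICC283 in the 8 agreed libraries. The difference of the log2 fold changes, ICC8261 minus ICC283, was -1.20 ± 0.31 (SE) and carries no test, since it contains the contrast LTP was chosen on. Over all genes tested, 12.6% were called for this difference, 7.88% with a positive and 4.68% with a negative value. The log2 difference between genotypes, ICC8261 minus ICC283, was -0.22 ± 0.22 under drought and 0.98 ± 0.22 when well-watered. Between genotypes 18.9% of all genes were called in drought leaves (10.9% higher in ICC8261, 8.04% lower) and 26.6% in well-watered leaves (11.3% higher in ICC8261, 15.3% lower). With the tables' treatments in all 12 libraries the difference of the drought effects shrank to -0.23 ± 0.53 and the well-watered difference to 0.17 ± 0.38, so both lay within 1 SE of 0. The ICC283 library at 736 CPM is in the well-watered group of that fit and not among the 8.

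The share of alignments that HTSeq set aside as not unique, of all it counted, separated by treatment within each genotype in the 8 agreed libraries only. It was 53.4% and 53.5% in ICC283 drought against 50.6% and 48.1% in ICC283 well-watered leaves, and 52.8% and 50.5% in ICC8261 drought against 46.7% and 44.1% in ICC8261 well-watered leaves. Lipid transfer protein genes form families of similar sequence in plants, and how many reads of LTP were set aside as not unique was not tested.

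LTP2, the other measured gene with an LTP symbol, moved the opposite way. It is identified here by its symbol, and its values were not used to choose LTP. In ICC283 LTP2 stood at 34.9 and 32.9 CPM in drought libraries 1 and 2, against 81.8 and 98.6 CPM in well-watered libraries 1 and 2. In ICC8261 it stood at 58.0 and 65.8 CPM in drought libraries 1 and 3, against 94.4 and 96.7 CPM in well-watered libraries 2 and 3. Drought and well-watered libraries of LTP2 did not overlap in either genotype, with 2 libraries per group. The share of all genes that separates in this way was not counted.

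LTP2 fell in ICC283 by 1.41 on the log2 scale (SE 0.138, edgeR adjusted p = 1.3e-04), where 21.1% of all genes were called lower. In ICC8261 it fell by 0.63 (SE 0.134, edgeR adjusted p = 0.014), where 6.37% of genes were called lower. Leaving out 1 library ended the ICC8261 call in 3 cases: the edgeR adjusted p was 0.09 when well-watered library 2 was left out, 0.067 for well-watered library 3 and 0.094 for drought library 1. The fold changes in those cases were -0.66, -0.63 and -0.53. With the count-file treatments LTP2 was at -0.42 in ICC283 and -0.21 in ICC8261, and neither passed edgeR's test (adjusted p = 0.78 and 1). That fit called 0 of all genes in both drought contrasts.

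The 4 libraries of conflicting treatment also split for LTP2, at 95.9 CPM (filed as ICC283 drought 3), 43.2 CPM (filed as ICC283 well-watered 3), 92.4 CPM (filed as ICC8261 drought 2) and 58.2 CPM (filed as ICC8261 well-watered 1). With the tables' treatments the 6 drought libraries were the 6 lowest of the 12 for LTP2. Under drought LTP2 was higher in ICC8261 than in ICC283 by 0.87 ± 0.14 on the log2 scale (edgeR adjusted p = 0.0035), a contrast in which 10.9% of all genes were called higher. With the count-file treatments that value was 0.41 and did not pass (edgeR adjusted p = 0.8). When well-watered the difference was 0.08 ± 0.13 (edgeR adjusted p = 0.67).

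The number of LTP reads for each LTP2 read does not depend on how libraries are scaled. In ICC283 it was 43.2 and 51.6 in drought libraries 1 and 2, against 2.25 and 3.07 in well-watered libraries 1 and 2. In ICC8261 it was 26.05 and 18.7 in drought libraries 1 and 3, against 4.80 and 5.24 in well-watered libraries 2 and 3. The conflicting libraries had 7.67 (filed as ICC283 drought 3), 31.0 (filed as ICC283 well-watered 3), 4.28 (filed as ICC8261 drought 2) and 27.4 (filed as ICC8261 well-watered 1). Transcript lengths were not used, so these ratios compare libraries and not the levels of both genes. Nothing is read from the ICC283 ratios, since LTP was chosen there. In the 8 agreed libraries LTP2 fell under drought in both genotypes, and the ratios carry that fall too.

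**Figure D3:**
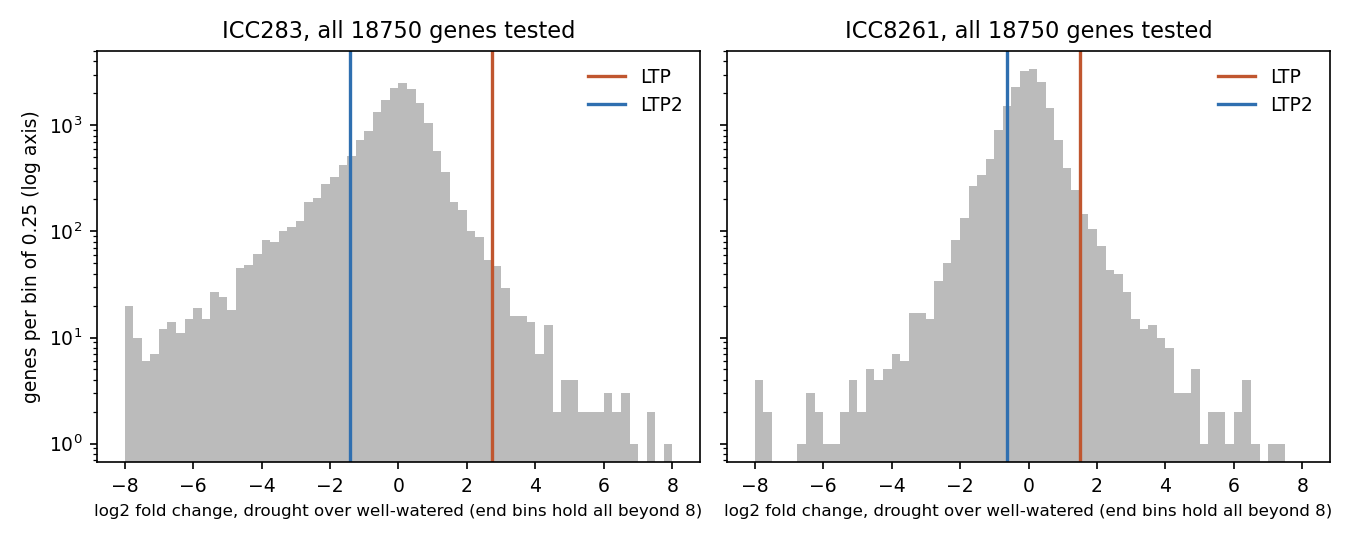
Distribution of log2 fold changes, drought over well-watered, of the 18750 genes tested in the 8 agreed libraries, for ICC283 (left) and ICC8261 (right), with the number of genes per bin on a log axis. The lines mark LTP at 2.72 and 1.52 and LTP2 at -1.41 and -0.63, on opposite sides of the peak near 0.

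Genes whose level followed LTP most closely were ranked by Pearson's r of log2 CPM over all 12 libraries, which needs no treatment label. The libraries share their treatments and their scaling, and r is given as a description. Of 18749 other genes, LOC101489753 came first (r = 0.98, Spearman's rho = 0.94). The list depends on the measure: 2 of the 8 closest genes by r were also among the 8 closest by rho. LOC101489753 had 128 and 135 CPM in ICC283 drought libraries 1 and 2, against 38.8 and 40.6 CPM in well-watered libraries 1 and 2. In ICC8261 it had 140 and 112 CPM in drought libraries 1 and 3, against 50.3 and 55.0 CPM in well-watered libraries 2 and 3. Nothing is read from the levels of such genes, here or below, since they were picked for their likeness to LTP.

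The second was LOC101509527 (r = 0.97), and the third was CapLEA-2 (r = 0.97, rho = 0.99), whose name marks it as a late embryogenesis abundant protein, a class that protects cells during drying. CapLEA-2 had 73 and 113 counts in ICC283 drought libraries 1 and 2, against 1 and 3 counts in well-watered libraries 1 and 2. In ICC8261 it had 78 and 59 counts in drought libraries 1 and 3, against 5 and 7 counts in well-watered libraries 2 and 3. At such low counts the size of its change is imprecise. The others of the 8 closest, LOC101495903, LOC101503674, LOC101498024, LOC101497363 and LOC101503257, had r of 0.96 each.

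Of all features, 422 have a symbol or synonym, and those of them among the genes tested were ranked. The closest after CapLEA-2 were GRP2, a glycine-rich protein (r = 0.94), and the dehydrin DHN (r = 0.93). Next came CAPLEA-1, another late embryogenesis abundant protein (r = 0.92), and PRP1 (r = 0.91). F-BOX1, NAC4, a NAC transcription factor, and CAHDZ12, a homeodomain-leucine zipper factor, followed with r of 0.88, 0.87 and 0.87. Among all genes they held ranks 234, 280 and 304. Other genes with a NAC symbol went the opposite way. The 8 lowest r with a symbol ran from -0.87 (1433) to -0.81 (ARF4) and included NAC69 (-0.84) and NAC6 (-0.83). DHN held rank 57 and GRP2 rank 32 among all genes. LTP2 had r = -0.78 (rho = -0.77), rank 1056 from the lowest of the 18749. Within the 6 libraries of each genotype, r between LTP2 and LTP was -0.83 in ICC283 and -0.98 in ICC8261.

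**Figure D4:**
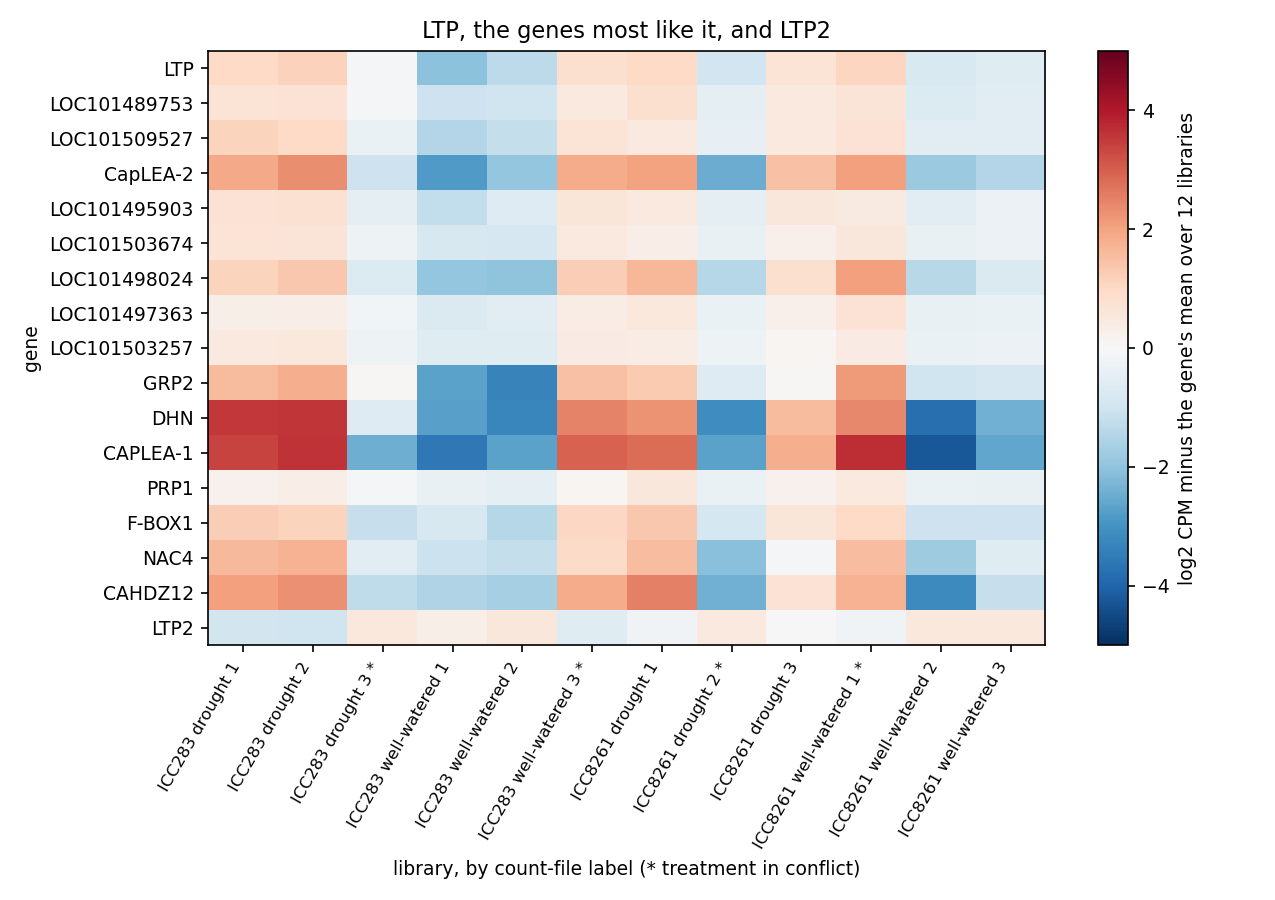
Log2 CPM of LTP, of the 8 genes most like it, of the closest genes with a symbol, and of LTP2 (rows) in the 12 libraries (columns, by count-file label, with a star where the treatment is in conflict), each gene centred on its own mean; red is above and blue below that mean. LTP ranges over a smaller span than DHN or CAPLEA-1, and LTP2 is above its mean where LTP is below, in 6 of 6 low libraries.

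The 3 measured genes next to LTP in the reference gene order had smaller log2 fold changes than LTP in both genotypes. Nothing is read from this, since few genes lay above LTP: 0.93% in ICC283, where it was chosen, and 2.70% in ICC8261. Over the 12 libraries their r with LTP was 0.88 (LOC101505469, rank 270), 0.83 (LOC101504840, rank 607) and 0.72 (LOC101504528, rank 1594). Of the nearest 2 genes on each side, none overlaps LTP in the reference assembly. LOC101511466 had 0 of 128760884 gene reads over all libraries, which allows up to 0.0233 reads in 1000000 (3 counts, counting error only). The adjacent LOC101505469 had 28.4 and 23.8 CPM in ICC283 drought libraries 1 and 2, against 11.6 and 12.4 CPM in well-watered libraries 1 and 2. It rose by 1.12 ± 0.19 on the log2 scale (edgeR adjusted p = 0.0019), where 17.1% of all genes were called higher. In ICC8261 it was at 0.24 ± 0.18 (edgeR adjusted p = 0.4).

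On the other side, the adjacent LOC101504840 had 43.3 and 56.5 CPM in ICC283 drought libraries 1 and 2, against 36.6 and 32.1 CPM in well-watered libraries 1 and 2. It rose by 0.54 ± 0.16 (edgeR adjusted p = 0.023), and by 0.67 ± 0.16 in ICC8261 (edgeR adjusted p = 0.021). Of all genes tested, 17.1% were called higher under drought in ICC283 and 9.09% in ICC8261. The ICC283 call ended without ICC283 well-watered library 2 (edgeR adjusted p = 0.11) or drought library 2 (0.18). The ICC8261 call ended without ICC8261 well-watered library 2 (edgeR adjusted p = 0.18), well-watered library 3 (0.085) or drought library 1 (0.1), and was 0.054 with the replicate number as a block. LOC101504528, the next gene out, rose by 0.63 ± 0.18 in ICC283 (edgeR adjusted p = 0.024). That call ended without ICC283 well-watered library 1 (edgeR adjusted p = 0.14) or drought library 1 (0.15), and under DESeq2 on the 8 libraries (0.64, DESeq2 adjusted p = 0.081). In ICC8261 the gene was at 0.18 ± 0.17 (edgeR adjusted p = 0.5). With the count-file treatments none of the 3 measured neighbours passed edgeR's test in either genotype, in a fit that called 0 of all genes in both drought contrasts.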

How the data were processed

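RNA sequencing of leaf RNA gave 12 libraries, grouped by the labels' titles. The authors deposited raw counts per gene, 1 file per library, each with 5 HTSeq summary lines, which entered neither library sizes nor tests. The submitters' processing notes name HTSeq, Trimmomatic, DESeq2, edgeR, Cufflinks 2.0.2 and TopHat2 2.1.1. Which build, annotation and strand setting were used is not given in the sources used here, so no coordinates are printed. The authors' deposited tables hold log2 fold changes, p-values and a normalized signal per library (DESeq2-normalized counts). Values of that signal were whole multiples of the smallest one within 0.02, and each column's reads equalled exactly 1 count file.

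Counts were fitted with edgeR 4.0.16 in R 4.3.3: filterByExpr (minimum count 10, minimum total 15), TMM, 1 model of 4 group means, robust glmQLFit, two-sided glmQLFTest, Benjamini-Hochberg adjustment over 18750 genes, calls at 0.05. SE is the absolute log2 fold change over the square root of F. Levels are CPM after TMM over 12 libraries, and log2 CPM uses a prior count of 2. The script was tested on simulated data. LTP counts ran between 1766 and 19162 per library; the exact 95% binomial interval of the lowest share was 153 to 168 reads in 1000000, for counting error only.

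Gene names came from a RefSeq table (assembly Cicar.CDCFrontier_v2.0), which matched 24445 of the 27234 features (89.8%). LTP and the lists were chosen with earlier results of these data known. Named genes are LTP, LTP2, 2 neighbours on each side, the 8 genes with the highest r, and the 8 highest with a symbol, the last added after the gene names were seen. Of the 8 lowest with a symbol, 1433, ARF4, NAC69 and NAC6 are also named. A family list by protein sequence was planned and not used here; of the cuticle list 2 symbols matched (LTP and LTP2) and of the abscisic acid list 0. Alternatives were both label sources for 12 libraries, DESeq2 1.42.0, RLE and upper-quartile scaling, no filter, a replicate block and leaving out each library.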

Additional observations from a re-analysis of the deposited data

Results flagged for a closer look

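LTP2 responded differently to drought in the genotypes by a test of the difference itself: ICC8261 minus ICC283 gave 0.79 ± 0.19 on the log2 scale (edgeR's quasi-likelihood test, adjusted p = 0.028), where 7.88% of all genes tested had a called positive difference. The fall was smaller in ICC8261, at -0.63, than in ICC283, at -1.41. Leaving out 1 library ended the call for ICC283 drought library 1 (0.83, edgeR adjusted p = 0.093), drought library 2 (0.74, 0.097) and well-watered library 2 (0.65, 0.064), and for ICC8261 drought library 3 (0.67, 0.07), well-watered library 2 (0.73, 0.12) and well-watered library 3 (0.76, 0.091). Over its 15 alternatives the adjusted p ran from 0.018 to 1, and the difference was 0.66 with the tables' treatments (edgeR adjusted p = 0.075).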

How the results depend on the processing

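LTP was higher under drought in both genotypes under all 15 alternatives. The log2 fold change in ICC283 ran from 2.40 to 3.12 when 1 library was left out, and was 1.14 with the count-file and 1.89 with the tables' treatments. In ICC8261 it ran from 1.37 to 1.65 when 1 library was left out. With the count-file treatments it was 0.31 ± 0.77 (SE) in ICC8261, within 1 SE of 0. The difference of drought effects ran from -1.61 to -0.89 without 1 library, and was -0.83 and -0.23 with the count-file and the tables' treatments. The well-watered genotype difference ran from 0.66 to 1.38, and was 0.51 and 0.17. The drought genotype difference ran from -0.38 to -0.07.

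LTP2 with the count-file treatments was at -0.42 in ICC283, -0.21 in ICC8261, 0.22 for the difference of drought effects and 0.41 for the genotype difference under drought; with the tables' treatments the difference of drought effects was 0.66. Without 1 library these values ran from -1.54 to -1.27, -0.72 to -0.53, 0.65 to 0.92 and 0.79 to 0.96, and the well-watered genotype difference from -0.048 to 0.22, below 0 without ICC283 well-watered library 1. In ICC8261 LOC101505469 turned to -0.0039 without well-watered library 3 (highest 0.497, without well-watered library 2), and LOC101504528 to -0.016 with the count-file treatments. The cause was not tested.

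Genes called in ICC283 under drought numbered 7167, and 3961 without ICC283 drought library 1. In ICC8261 they numbered 2898, against 1800 with the replicate block and 455, 1242 and 1101 without well-watered libraries 2 and 3 and drought library 1. For the difference of drought effects 2355 became 0 with the count-file treatments in edgeR (634 at an unadjusted p under 0.05), 479 with the tables' treatments and 540 at the lowest without 1 library; for the genotype differences 3551 (drought) and 4992 (well-watered) became 1913 and 2359 with the tables' treatments, 113 and 98 with the count-file treatments, and 862 and 1434 at the lowest without 1 library. The block gave 3182 when well-watered.

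With the replicate block LTP was at 2.74 in ICC283 and 1.64 in ICC8261 (edgeR adjusted p = 0.0052), and LOC101504840 in ICC8261 lost its call at 0.68. Deviations of same-numbered libraries correlated at -0.08 to 0.26 with the tables' labels. The count-file range (-0.60 to 0.70) cannot test pairing, as 1 library per group stood apart in LTP. Of the 8 genes most like LTP, 6 were shared with a prior count of 0.5 and 2 with Spearman's rho. Where a group was left with 1 library, that library was assumed to vary like the others. The family counts planned by protein sequence were not run. With 2 libraries per group, precision is set by the spread of 8 libraries, not by the depth of LTP.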

Other observations

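The mean edgeR log2 CPM of LTP in the authors' deposited table is 8.10 for ICC283 and 8.32 for ICC8261. From the count files it is 9.86 and 9.94 when library sizes are the gene reads, and 8.12 and 8.27 when they include the HTSeq summary lines.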
